A study of Mus musculus with 6 samples.

Results

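The sites described here are the places in the genome of the mouse molar tooth germ where chromatin immunoprecipitation followed by sequencing (ChIP-seq) gave a peak for pSmad1/5 and a peak for Smad4 on the same bases. They were chosen as the molar pSmad1/5 peaks that overlap a molar Smad4 peak by at least 1 bp. There were 209 of them among 35476 molar pSmad1/5 peaks, and they met 210 of 34561 molar Smad4 peaks, since 1 pSmad1/5 peak, inside Igfbp5, covered 2 Smad4 peaks. The sites without a partner, 35267 for pSmad1/5 and 34351 for Smad4, are the other side of each comparison. All 4 peak lists of the series together hold 123182 peaks.

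The groups were molar tooth germ precipitated with an antibody to pSmad1/5, molar tooth germ precipitated with an antibody to Smad4, and limb precipitated with each of these antibodies. All came from wild-type CD1 mice at E13.5, the bud stage of the molar, with no mutation or treatment. Each group is 1 library, so no value below has a replicate check and no p-value was computed. Intervals in the text are exact (Clopper-Pearson) 95% intervals and cover counting error over peaks alone. The number of embryos behind a library is not stated in the labels, and a tooth germ holds epithelium and mesenchyme together, so a peak cannot be assigned to either. The lists carry no read counts, and depth is unknown. Each peak has an enrichment score, the peak caller's own value, which ranks peaks within its list.

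Bone morphogenetic proteins (BMPs) bind paired serine/threonine kinase receptors, which phosphorylate Smad1 and Smad5. The phosphorylated Smads join Smad4, enter the nucleus and bind DNA as a complex, so a site of BMP-Smad action is usually pictured as carrying both proteins. Smad4 also partners with the Smads of the TGF-beta and activin branch. In the tooth germ, BMP signals pass between epithelium and mesenchyme and act with the transcription factors Msx1 and Pax9.

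Shared sites whose pSmad1/5 summit falls in the window from 250 bases before to 50 bases after an annotated gene start show what such a site looks like in sequence. There were 12 such windows, of 11 genes, and 6 are printed as examples from RefSeq on GRCm38.p6, 5′ to 3′ on the strand of the gene. Capitals mark the bases that lie in both the pSmad1/5 peak and the Smad4 peak.
Slc27a3 (chr3:90389889-90390188, minus strand): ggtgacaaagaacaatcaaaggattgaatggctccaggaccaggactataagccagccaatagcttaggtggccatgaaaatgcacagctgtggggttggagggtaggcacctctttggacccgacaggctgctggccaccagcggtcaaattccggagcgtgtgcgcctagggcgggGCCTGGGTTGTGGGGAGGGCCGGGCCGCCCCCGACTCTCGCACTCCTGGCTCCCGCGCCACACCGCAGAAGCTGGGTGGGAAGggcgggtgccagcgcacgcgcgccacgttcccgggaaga
Cnppd1 (chr1:75141642-75141941, minus strand): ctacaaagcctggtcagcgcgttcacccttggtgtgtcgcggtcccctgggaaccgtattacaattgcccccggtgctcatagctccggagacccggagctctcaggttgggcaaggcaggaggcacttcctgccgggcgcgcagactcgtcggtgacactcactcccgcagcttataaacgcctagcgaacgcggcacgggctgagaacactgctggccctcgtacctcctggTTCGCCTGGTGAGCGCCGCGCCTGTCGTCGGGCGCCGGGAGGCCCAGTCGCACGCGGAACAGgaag
Morf4l2 (chrX:136741303-136741602, minus strand): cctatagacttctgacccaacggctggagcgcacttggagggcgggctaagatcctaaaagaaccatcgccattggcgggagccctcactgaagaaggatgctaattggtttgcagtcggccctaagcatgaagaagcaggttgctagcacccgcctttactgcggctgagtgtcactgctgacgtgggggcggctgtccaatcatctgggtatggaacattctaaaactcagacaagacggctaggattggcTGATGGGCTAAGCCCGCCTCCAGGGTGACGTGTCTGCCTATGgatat
Sec16b (chr1:157525920-157526219, plus strand): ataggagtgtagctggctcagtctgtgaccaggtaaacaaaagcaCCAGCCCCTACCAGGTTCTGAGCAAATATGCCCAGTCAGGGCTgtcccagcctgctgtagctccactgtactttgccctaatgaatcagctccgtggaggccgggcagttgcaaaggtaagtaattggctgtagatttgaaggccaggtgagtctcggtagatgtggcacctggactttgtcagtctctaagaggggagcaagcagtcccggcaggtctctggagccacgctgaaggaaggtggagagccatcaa
Lekr1 (chr3:65665978-65666277, plus strand): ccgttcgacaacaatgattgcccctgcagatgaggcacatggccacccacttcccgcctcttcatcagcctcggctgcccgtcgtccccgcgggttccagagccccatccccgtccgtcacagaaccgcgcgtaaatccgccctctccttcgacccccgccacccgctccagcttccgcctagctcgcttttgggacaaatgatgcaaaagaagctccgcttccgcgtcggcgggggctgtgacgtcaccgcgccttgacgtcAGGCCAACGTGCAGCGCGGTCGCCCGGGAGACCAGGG
Otub1 (chr19:7206235-7206534, minus strand): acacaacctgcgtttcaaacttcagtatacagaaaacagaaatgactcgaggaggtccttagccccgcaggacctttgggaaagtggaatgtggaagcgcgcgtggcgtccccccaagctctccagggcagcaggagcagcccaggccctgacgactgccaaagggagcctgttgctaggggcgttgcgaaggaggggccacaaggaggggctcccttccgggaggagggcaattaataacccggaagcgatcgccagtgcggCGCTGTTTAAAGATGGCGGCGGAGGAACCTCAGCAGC
The first belongs to Slc27a3, a fatty acid transporter family member, and carries an overlap of 83 bp with the pSmad1/5 summit 39 bp and the Smad4 summit 25 bp before the start. In the Cnppd1 window the 62 bp of overlap hold the word GGCGCC, and in the Morf4l2 window the 42 bp of overlap hold CAGAC on 1 of the strands. Sec16b, a factor of vesicle export from the endoplasmic reticulum, has both summits farther before the start of its window, at 156 bp for pSmad1/5 and 187 bp for Smad4. Several of these starts are internal ones: the pSmad1/5 summit lay inside the gene, 19281 bp from its outer start, in Sec16b, 6738 bp in Lekr1, 2330 bp in Morf4l2, 1063 bp in Cnppd1 and 858 bp in Slc27a3. The Lekr1 site is also overlapped by a limb Smad4 peak. Otub1, a deubiquitinase, has both summits just after the outer start of the gene, 4 bp apart.

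The words searched were GGCGCC, the core of the BMP-responsive element, CAGAC, a Smad-binding element, and GTCTAGAC, its palindromic form. Both strands were searched, and no word contains another. The 12 windows with a shared summit come from 10 sites, since Ro60 and Uchl5 share a site and Morf4l2 has 2 windows. GGCGCC was held by 3 windows at 2 sites, CAGAC by 5 windows at 4 sites, and GTCTAGAC by 0. These numbers are too small for a share. Windows of neighbouring starts overlap in the larger groups too, so the intervals below are too narrow. Of all 21238 promoter windows, 15.3% held GGCGCC, 48.4% held CAGAC and 0.226% held GTCTAGAC. The 1221 windows with a pSmad1/5 summit and no Smad4 summit held GGCGCC in 32.2% of cases (29.6 to 34.9%), and the 169 with a Smad4 summit and no pSmad1/5 summit in 12.4% (7.86 to 18.4%). Base composition moved with this. The median G and C content was 63.0% in the windows with a shared summit, 67.0% with pSmad1/5 alone, 57.3% with Smad4 alone and 56.3% in all windows. Among windows of 60 to 70% G and C, a range chosen after the values were seen, GGCGCC stood in 27.8% of those with pSmad1/5 alone (24.1 to 31.8%) and in 24.9% of all (23.8 to 26%). These intervals overlap.

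The overlap between the peaks of a pair was short. Its median was 34 bp (quartiles 19 and 48 bp), and 128 of the 210 pairs overlapped by at least 50% of the shorter peak. The summits of a pair lay a median of 33 bp apart, and 204 pairs had summits within 100 bp. Shared pSmad1/5 peaks were a median of 67 bp wide, against 63 bp for pSmad1/5 peaks alone. Shared Smad4 peaks had a median width of 56.5 bp, against 55.0 bp for Smad4 peaks alone. The 209 peaks lay at 206 loci, counted as separate when over 10 kb apart, so they were spread singly rather than in clusters.

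The distances between the antibodies were also counted over all pairs of a pSmad1/5 and a Smad4 summit, shared sites included. In molar, 298 pairs lay under 100 bp apart, 227 at 100 to 200 bp and 189 at 200 to 300 bp. Between 1 and 3 kb the molar counts were flat, at 141 to 198 pairs per 100 bp with a mean of 163 over 20 bins. The first bin held 1.82 times that level and the second 1.39 times. Of the 298 pairs in the first bin, 203 were the pairs of shared sites, which were chosen for overlapping, and 95 were pairs of peaks that do not overlap each other. In limb the first bin held 1415 pairs, 6.61 times the mean of 214 at 1 to 3 kb, the second 3.82 times and the third 2.54 times. The third molar bin held 1.16 times the level at 1 to 3 kb, and the molar ratio was below the limb ratio in each of the first 3 bins. By position of the pSmad1/5 summit, the first molar bin held 2.02 times the level at 1 to 3 kb near gene ends, 1.94 times inside genes and 1.58 times outside genes. The limb values were 14.5, 4.56 and 6.52 times in the same order.

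**Figure D1:**
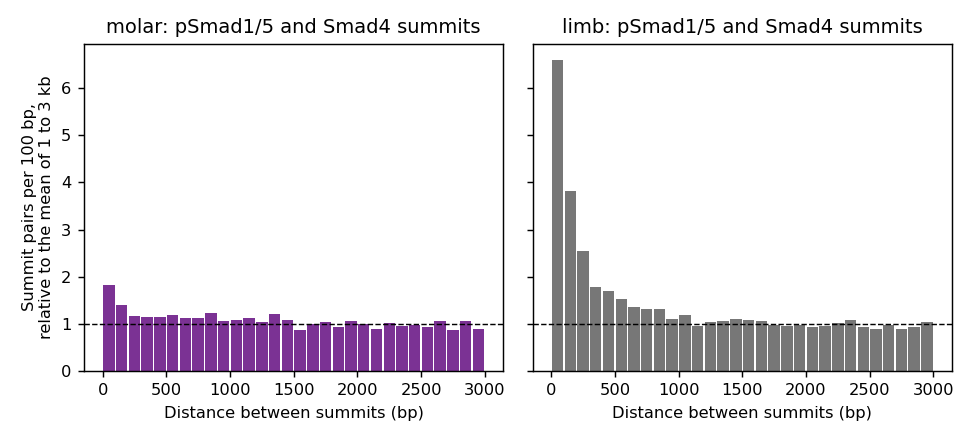
Pairs of a pSmad1/5 and a Smad4 summit by the distance between them, in bins of 100 bp, divided by the mean of the bins from 1 to 3 kb (dashed line at 1), for molar (left) and limb (right). Pairs of overlapping peaks are included. The first molar bin stands at 1.82, with 203 of its 298 pairs from shared sites, and the first limb bin at 6.61.

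Most unshared sites were far from the partner. The nearest Smad4 summit lay a median of 18686 bp from pSmad1/5 sites without Smad4 (quartiles 6808 and 47169 bp). For Smad4 sites without pSmad1/5, the nearest pSmad1/5 summit lay a median of 20462 bp away. Within 1 kb of the partner were 4.96% of the pSmad1/5 sites and 4.90% of the Smad4 sites, and over 50 kb away were 23.8% and 26.3% in that order.

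In score, shared peaks sat in the middle of their lists. Because the lowest listed score differs between chromosomes, each peak was ranked among the peaks of its own chromosome and list. The shared peaks had a median percentile of 49.6 among pSmad1/5 peaks (quartiles 23.7 and 74.2) and of 54.7 among Smad4 peaks (quartiles 27.4 and 78.7). Of the 210 pairs, 6 stood in the top 10% of their chromosome in both lists. They are a pair of sites inside Emp2, and single sites near Cwc22, Fzr1, Bdkrb2 and Bcor.

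The 12 shared sites with the highest pSmad1/5 score are given here with the pSmad1/5 score first and the Smad4 score second. Ranked by Smad4 score instead, the first 4 were the same sites in another order, followed by sites near Gtf2i (6.17), Gsg1 (5.84) and Atp6v1b2 (5.598). Emp2, a membrane protein of epithelia, held the top site, at chr16:10284522-10284548 with scores of 13.8 and 13.97, and the next, at chr16:10285412-10285553 with scores of 7.38 and 7.77. Cwc22, a splicing factor, had a site 2604 bp from its end (chr2:77878513-77878649, scores 5.70 and 6.73). Both genes lie in dense groups of peaks: within 50 kb, Emp2 had 12 pSmad1/5 and 4 Smad4 molar peaks, and Cwc22 had 13 pSmad1/5 and 36 Smad4 molar peaks. Unshared peaks also scored high there, up to 11.7 inside Emp2 for pSmad1/5 and 9.85 inside Cwc22 for Smad4. Of the 5 highest unshared pSmad1/5 peaks, 3 lay inside 1600014C10Rik (scores 9.49, 8.30 and 7.98), which had 0 shared sites within 50 kb. Scores in limb within 50 kb reached 3.34 for pSmad1/5 and 3.17 for Smad4 at Emp2, and 10.4 for pSmad1/5 and 9.13 for Smad4 at Cwc22.

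Below these, the top shared sites by pSmad1/5 score lay singly. Fzr1, an activator of the anaphase-promoting complex, had one 698 bp from an end (chr10:81367529-81367591, scores 5.41 and 9.495). Ppp1r9b, the actin and phosphatase scaffold spinophilin, had one 574 bp from its start (chr11:94991737-94991811, scores 5.13 and 4.68). Bcl11a, a zinc finger repressor of transcription, had one 7 bp from its start (chr11:24076522-24076570, scores 4.42 and 4.01). Ptpdc1, a phosphatase, and Bdkrb2, the bradykinin B2 receptor, held sites inside the gene, with scores of 4.81 and 4.13 at Ptpdc1 and of 4.34 and 4.75 at Bdkrb2. The other 4 of the 12 were 85208 bp from Tmx1, 21899 bp from Arl15, 4232 bp from Mgarp and 646 bp from an end of Ppfia3, with pSmad1/5 scores of 4.53, 4.44, 4.33 and 4.195 in that order. None of these genes is in the tooth or BMP lists used below.

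By position, shared sites stood near gene ends about as often as other pSmad1/5 sites and more often than other Smad4 sites, and outside genes less often than either. Near a gene end, within 1 kb of either end of a protein-coding gene, were 35 of the 209 shared sites (16.7%, 11.95 to 22.5%), 14.4% of pSmad1/5 sites alone (14.0 to 14.7%) and 4.75% of Smad4 sites alone (4.53 to 4.98%). The intervals of shared and pSmad1/5-only sites overlap, and that of Smad4-only sites lies below both. Inside genes but over 1 kb from an end were 50.7% of shared sites, 44.3% of pSmad1/5 sites alone and 47.2% of Smad4 sites alone. Outside genes were 32.5% of shared sites (26.2 to 39.3%), 41.3% of pSmad1/5 sites alone (40.8 to 41.8%) and 48.1% of Smad4 sites alone (47.5 to 48.6%). The median distance to the nearest gene end was 10964 bp for shared pSmad1/5 peaks, against 18881 bp for pSmad1/5 alone and 32454 bp for Smad4 alone. Genes longer than 100 kb held 37.7% of the shared sites inside genes (28.5 to 47.7%), 49.2% of those of pSmad1/5 alone (48.4 to 49.96%) and 58.6% of those of Smad4 alone (57.8 to 59.3%).

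The end of the gene differed too. Where the strand was known, 22 of 27 shared gene-end sites were at the start of the gene (81.5%, 61.9 to 93.7%), as were 83.8% of gene-end sites of pSmad1/5 alone (82.7 to 84.97%). For Smad4 alone it was 56.9% (54.1 to 59.6%), an interval below that of the shared sites. The intervals of shared and Smad4-only sites overlapped, at 49.2 to 95.3% and 54.2 to 59.9%, with a score of at least 3, at 49.9 to 75.4% and 50.4 to 53.4% with near taken as 5 kb, and at 9.43 to 99.2% and 53.5 to 63.9% with a score of at least 4.

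**Figure D2:**
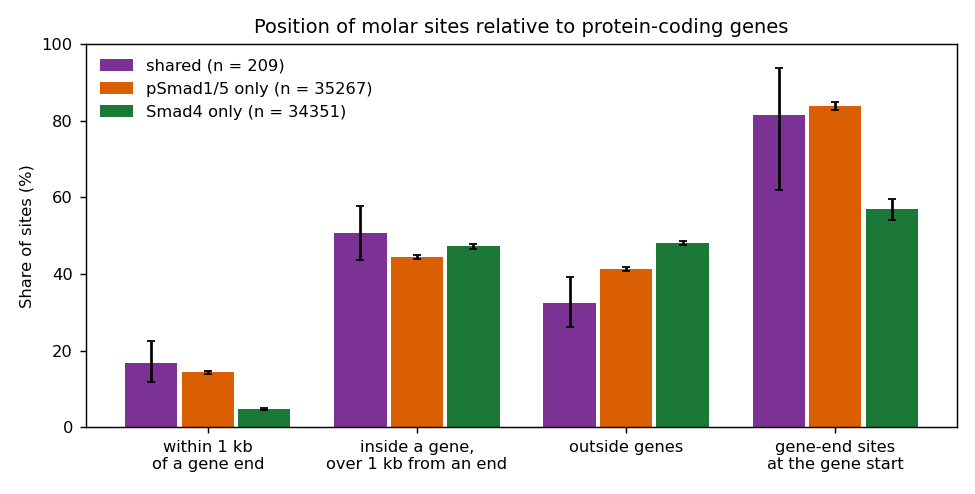
Share of molar sites, in percent, near a protein-coding gene end, inside genes and outside genes, and the share of gene-end sites that lie at the gene start, for shared, pSmad1/5-only and Smad4-only sites; bars with exact 95% intervals. Shared sites stand at 16.7% near gene ends, close to pSmad1/5 alone at 14.4% and above Smad4 alone at 4.75%.

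The 35 shared gene-end sites touched 40 genes, because some lie between neighbours such as Uchl5 and Ro60; Acp1, Sec24c, Hrc and Ltbr are the other 4 such neighbours. Those with the highest pSmad1/5 score after Fzr1, Ppp1r9b, Bcl11a and Ppfia3 were Shank2 at 8 bp (a synaptic scaffold, scores 4.19 and 3.03), Fut11 at 171 bp (a fucosyltransferase, 4.12 and 3.12), Capn15 at 258 bp (a protease, 3.995 and 3.01), Tmem163 at 183 bp (3.66 and 3.92), Lgi3 at 87 bp (3.65 and 3.01) and Usp14 at 238 bp (a deubiquitinase of the proteasome, 3.19 and 3.0). Signalling and transcription genes stood among the rest. Heyl and Hes5, repressors induced by Notch, had sites at 348 and 476 bp. Sox7, a factor of endothelium, had one at 527 bp. Il17rd, an inhibitor of Fgf signalling, had one at 932 bp, and Traf3, an adaptor of immune receptors, one at 952 bp. Metabolic and housekeeping genes included Ldhb (462 bp), Nup153 (452 bp), Ints3 (142 bp) and Vps8 (6 bp). The remaining nearest genes were Slc27a3, Mob2, Tmem178, Unc45a, Sipa1l3, Otub1, Apod, Gm9733, Uchl5, Tram2, Scnn1a, 2510009E07Rik, Sh3yl1, Tex13d, Gm29776 and Gpr160. Over all 35 the pSmad1/5 score ran from 2.10 at Il17rd to 5.41 at Fzr1.

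Shared sites were unevenly spread over the chromosomes. Chromosome 1 held 36, chromosome 12 held 30, and chromosomes 3 and 13 held 21 each, together 108 of 209 (51.7%). The X chromosome held 19. At the other end, 10 of the 21 chromosomes held 3 or fewer and 16 in all, with 2 on chromosome 2 and 0 on Y. Pooled counts differed between autosomes grouped by how far down each list reached. On the 7 autosomes where the lowest scores, rounded down, were 2 for pSmad1/5 and 3 for Smad4 (1, 3, 6, 12, 13, 14 and 16), 147 shared sites gave 15.2 per 100 Mb. On the 6 where both were 3 (4, 7, 10, 15, 17 and 18) there were 32, or 4.43 per 100 Mb. On the 6 where they were 3 and 4 (2, 5, 8, 9, 11 and 19) there were 11, or 1.43 per 100 Mb. Counts also varied within a group. Where both floors were 3, chromosome 7 held 12 (8.26 per 100 Mb), chromosome 10 held 2 (1.53) and chromosome 15 held 1 (0.962). The cause of the spread was not tested.

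As a share of the pSmad1/5 peaks present, the same groups differed less. The shared fraction was 0.688% (0.582 to 0.809%) on the 7 autosomes, 0.551% (0.377 to 0.777%) on the next 6 and 0.160% (0.0798 to 0.286%) on the last 6. By chromosome it was highest on X, at 1.35% (0.813 to 2.09%), and on chromosome 12, at 1.18% (0.800 to 1.69%), and lowest on chromosome 9, at 0.0982% (0.00249 to 0.546%), leaving out Y with 17 pSmad1/5 peaks. Chromosomes 1 and 16 had like pSmad1/5 densities, 25.1 and 25.2 peaks per Mb, with shared fractions of 0.734% and 0.364%, whose intervals overlap. The 7 autosomes, the next 6 and the last 6 held 15445, 12550 and 2809 Smad4 peaks in that order. Set against the Smad4 peaks, shared sites were rarest on the next 6 autosomes, not on the last 6.

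**Figure D3:**
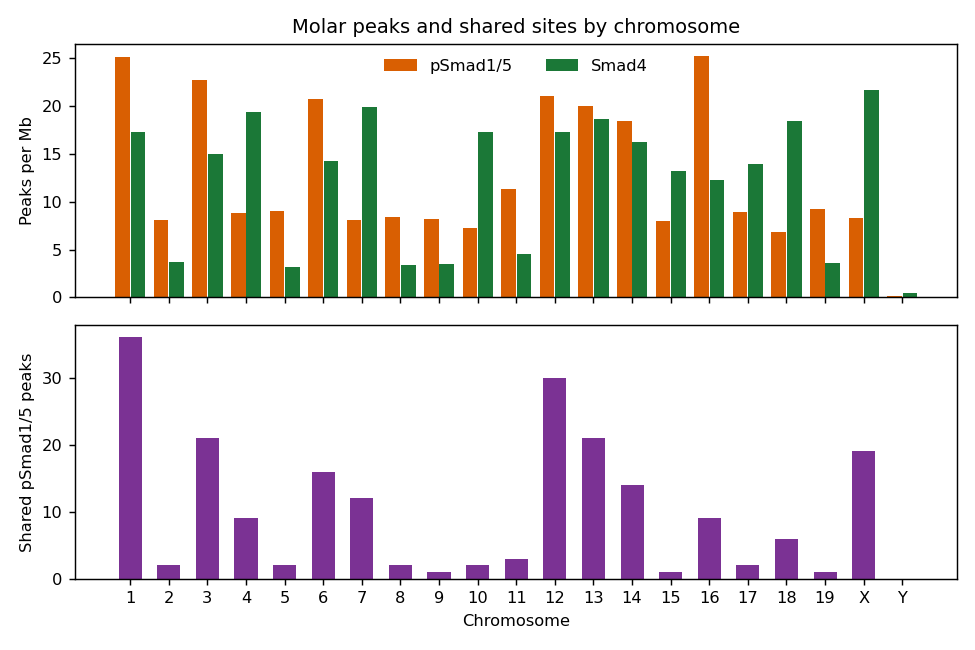
Molar pSmad1/5 and Smad4 peaks per Mb (upper panel) and the number of shared pSmad1/5 peaks (lower panel) on each chromosome. Chromosome 1 has the most shared sites, 36. Chromosomes 2, 5, 8, 9, 11, 19 and Y, where Smad4 peaks are sparse, have 3 or fewer each. So do chromosomes 10, 15 and 17, where Smad4 peaks are denser (17.3, 13.3 and 13.9 per Mb).

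The limb lists took no part in choosing the sites and can be read against them. Of the shared pSmad1/5 peaks, 12 of 209 overlapped a limb peak of either antibody (5.74%, 3.0 to 9.81%), against 2.86% of pSmad1/5 peaks alone (2.69 to 3.04%). Of the shared Smad4 peaks, 8 of 210 did (3.81%, 1.66 to 7.37%), against 0.690% of Smad4 peaks alone (0.605 to 0.783%). The Smad4 intervals are apart, and the pSmad1/5 intervals touch. With both lists cut to the same number of peaks on each chromosome the Smad4 intervals overlapped, with 2.80% (0.767 to 7.01%) for shared and 0.698% (0.600 to 0.809%) for unshared peaks, as they did with a score of at least 4. Away from gene ends the pSmad1/5 shares were 5.75% (2.79 to 10.3%) for shared and 1.73% (1.58 to 1.88%) for unshared sites, with intervals apart. Near gene ends they were 5.71% (2 of 35, 0.700 to 19.2%) and 9.59% (8.79 to 10.4%), which cannot be told apart with 35 sites.

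The 12 recurrent sites carried a single limb antibody each. Limb Smad4 overlapped 8, at Cnnm4, Supt20, Lekr1, Hapln2, Sema4b, Inf2, 2510009E07Rik and Capn15. Limb pSmad1/5 overlapped 4, near Ate1, Kif3c, Bdkrb2 and Uggt2. Hapln2 encodes a hyaluronan link protein and Sema4b a semaphorin. None of the 209 overlapped peaks of both limb antibodies (upper bound 1.75%), and 56 pSmad1/5 peaks without molar Smad4 did (0.159%), a share within that bound.

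Counting genes instead of sites, a site was given to each gene that had an end within 50 kb of the summit. Of 21887 protein-coding genes, 404 had a shared site (1.85%), 12284 had both antibodies at separate sites and none shared (56.1%), 3591 had pSmad1/5 alone (16.4%), 2044 had Smad4 alone (9.34%) and 3564 had neither (16.3%). Within 1 kb of an end the numbers were 40 (0.183%), 469 (2.14%), 4031 (18.4%), 1190 (5.44%) and 16157 (73.8%) in the same order. Within 10 kb, 137 genes had a shared site (0.626%) and 4907 had separate ones (22.4%). At each distance, over 10 times as many genes had separate sites as had a shared one. With 209 of 35476 pSmad1/5 peaks shared, such an excess comes with the lists, whichever genes are taken.

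At the signalling and tooth genes separate sites outnumbered shared ones, as they did over all genes. Of 333 genes in 17 lists of pathways, tissues and cell types, 7 had a shared site within 50 kb (2.10%, against 1.85% of all genes) and 250 had both antibodies at separate sites (75.1%, against 56.1%). Of the others, 47 had pSmad1/5 alone (14.1%, against 16.4%), 13 had Smad4 alone (3.90%, against 9.34%) and 16 had neither (4.80%, against 16.3%). Within 1 kb, 2 had a shared site (0.601%, against 0.183% of all genes). Separate sites within 1 kb stood at 9 (2.70%, against 2.14%), near the share of all genes. The closest pSmad1/5 and Smad4 summits of a listed gene with both were a median of 3750 bp apart (quartiles 1176 and 11636 bp, 257 genes), against 4533.5 bp (quartiles 1217 and 14134.8 bp) for the 12688 protein-coding genes with both.

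Among the ligands of the BMP and TGF-beta families, 0 of the 20 listed had a shared site within 50 kb, against 1.85% of all genes. Both antibodies stood at separate sites at 16 (80%, against 56.1%). Bmp15, a BMP-family ligand of the oocyte that is not in the list, had a shared site 42000 bp away (chrX:6272005-6272066, scores 2.40 and 2.12). Their closest summits were a median of 1157.5 bp apart, the shortest median of the 17 lists. Bmp4, the main BMP of dental mesenchyme, had 4 pSmad1/5 and 6 Smad4 molar peaks. Its closest pair lay inside the gene, pSmad1/5 2489 bp and Smad4 1824 bp after the start, 665 bp apart, with scores of 3.64 and 4.29. At gene ends, within 1 kb, 7 of the 20 ligand genes had pSmad1/5 alone (Inhbb, Gdf11, Gdf7, Bmp6, Gdf5, Bmp3 and Tgfb1; 35%, against 18.4% of all genes), and 1 had Smad4 alone, the activin subunit gene Inhba (5%, against 5.44%).

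Of the 14 receptor genes, 0 had a shared site within 50 kb, against 1.85% of all genes. Separate sites stood at 11 (78.6%, against 56.1%). Bmpr1a, a type I BMP receptor, came closest to sharing: its pSmad1/5 summit lay 216 bp and its Smad4 summit 133 bp after the start, 83 bp apart, with scores of 2.41 and 3.73. Acvrl1, a type I receptor of endothelium, also had both within 1 kb of an end, 642 bp apart. The Smads and their cofactors had 0 shared (against 1.85% of all genes) and 13 of 16 separate (81.25%, against 56.1%). Ski, a corepressor of Smads, had a pSmad1/5 peak 429 bp after its start and a Smad4 peak at its far end, 68459 bp away, and over the 50 kb window its closest summits were 1405 bp apart. Smad6, an inhibitory Smad, had its 2 pSmad1/5 peaks and its single Smad4 peak 64920 bp apart or more, and Smad7 had 8152 bp between the closest. On chromosome 9, which holds Smad6, the Smad4 list starts at a score of 4 and has 441 peaks.

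BMP antagonists and modulators had 2 of 18 genes with a shared site within 50 kb (11.1%, against 1.85% of all genes). Bmp1, a protease that cleaves the antagonist chordin, had 2 such sites, which lie nearer to other genes, 87 bp from Lgi3 and inside Hr. At gene ends 9 of the 18 had pSmad1/5 alone (50%, against 18.4% of all genes), among them Chrd, Fst, Grem1 and Bambi. Smad4 alone stood at 1, Fstl3 (5.56%, against 5.44%). Both antibodies stood at 0, against 2.14% of all genes with separate sites and 0.183% with a shared one.

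For BMP-Smad target genes the count within 50 kb was 0 shared and 27 separate of 30 (90%). Of all genes, 1.85% had a shared site and 56.1% had separate ones. Id3, an inhibitor of differentiation and a common readout of BMP signalling, had its closest summits 256 bp apart, 29244 bp after the start for pSmad1/5 and 28988 bp for Smad4 (scores 3.73 and 3.88). Id1 had them 1137 bp apart and Id2 2661 bp apart. At gene ends, Msx1 and Dlx6 were among 10 genes with pSmad1/5 alone (33.3%, against 18.4% of all genes). Msx2 and Dlx5 had Smad4 alone (6.67%, against 5.44%). The neighbours Dlx5 and Dlx6 thus differed in antibody within 1 kb. Within 50 kb each had both, with 2 pSmad1/5 and 8 Smad4 peaks at Dlx5 and 2 and 11 at Dlx6.

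Of the 40 dental mesenchyme genes, 0 had a shared site within 50 kb, where 1.85% of all genes did. Both antibodies stood at separate sites at 36 (90%, against 56.1%). Tfap2b, Axin2 and Sostdc1 had pSmad1/5 alone, and Dkk1 had neither. Sites deep inside long genes do not count here: Gli3, a transcription factor of hedgehog signalling that is in the dental mesenchyme, limb patterning and hedgehog lists, held a shared site 60562 bp from its start (chr13:15524236-15524288, scores 2.80 and 3.64). The closest summits lay 138 bp apart at Alx4 (scores 3.16 and 4.17), and 178 bp apart at Barx1, 33818 bp after the start for pSmad1/5 and 33640 bp for Smad4. Barx1 is a homeobox regulator of molar identity (scores 3.81 and 3.01). Wnt5a had 975 bp, the osteoblast and tooth factor Runx2 1485 bp, Pax9 3714 bp, Dlx2 5873 bp, Lhx8 6513 bp, Msx1 8707 bp, Osr2 16827 bp and Lhx6 45190 bp between its closest pair. At gene ends 14 of the 40 had pSmad1/5 alone (35.0%), 4 had Smad4 alone (10%: Msx2, Dlx5, Inhba and Wif1) and 0 had both. All genes gave 18.4%, 5.44% and 2.14% for pSmad1/5 alone, Smad4 alone and both apart. The chromosomes of these genes differ in how far down the lists reach, and its part in these counts was not tested.

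**Figure D4:**
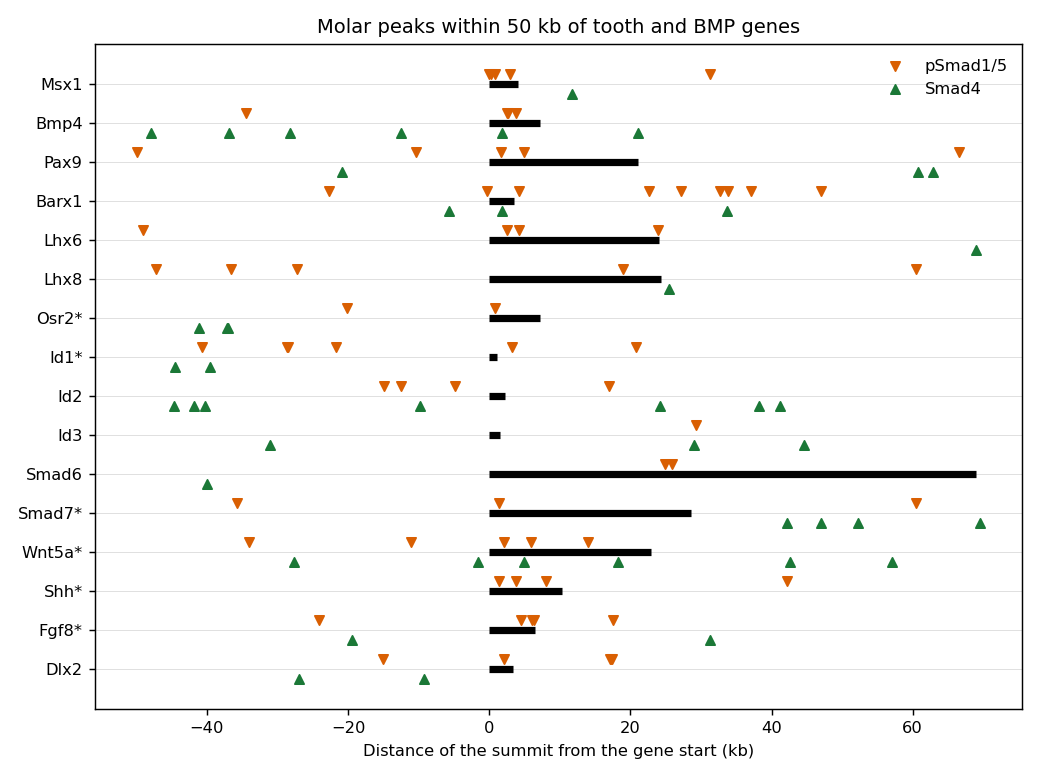
Molar pSmad1/5 (orange, above each gene) and Smad4 (green, below) summits within 50 kb of the ends of 16 tooth and BMP genes, in kb from the gene start; the black bar is the gene, and for genes with an asterisk the strand was not known and the lower coordinate is taken as the start. No pair is a shared site. The closest are at Barx1 (178 bp) and Id3 (256 bp). Shh has no listed Smad4 peak, on a chromosome where the Smad4 list starts at a score of 4.

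Of all genes, 1.85% had a shared site within 50 kb and 56.1% had separate sites. In the dental epithelium list 1 of 32 genes had a shared site (3.125%) and 26 had separate sites (81.25%). The exception was Tbx1, a T-box factor of pharynx and tooth epithelium, whose site lay inside the neighbour Gnb1l, 25556 bp from Tbx1 (chr16:18555374-18555510, scores 2.71 and 3.43). Tbx1 had 24 pSmad1/5 peaks in the window, and this site was lost when dense groups of peaks are left out. Fgf8, a growth factor of early dental epithelium, had closest summits 4726 bp apart. Shh had 4 pSmad1/5 peaks and 0 Smad4 peaks. It lies on chromosome 5, where the Smad4 list starts at a score of 4 and holds 480 peaks (3.17 per Mb). Weaker Smad4 peaks are not listed there. At gene ends 14 of 32 had pSmad1/5 alone (43.8%, against 18.4% of all genes), 2 had Smad4 alone (Krt17 and Trp63; 6.25%, against 5.44%) and 0 had both, against 2.14% apart and 0.183% shared.

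Notch signalling was the list with shared sites at gene ends. Heyl and Hes5 made 2 of 18 within 1 kb (11.1%, against 0.183% of all genes), and they were also its 2 genes with a shared site within 50 kb. At Heyl the site stood at chr4:123233880-123233925, inside the gene 348 bp from an end, with 46 bp of overlap and scores of 3.12 and 3.26. At Hes5 it stood at chr4:154961062-154961120, 476 bp after the start, with 20 bp of overlap and scores of 3.11 and 3.96. Both lie on chromosome 4, where the pSmad1/5 scores ranked at percentiles 19.8 for Heyl and 17.9 for Hes5. Hes1, another repressor of this class, had both antibodies within 1 kb of an end at separate sites 821 bp apart (scores 2.26 and 3.07). With 50% of the shorter peak required to overlap the Hes5 site was lost, with a score of at least 4 neither shared site remained, and when both lists were trimmed to the same length on each chromosome the Heyl site was lost.

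The remaining lists had few or no shared sites within 50 kb. There were 0 of 45 for limb patterning, 0 of 52 for Wnt signalling, 0 of 16 for hedgehog signalling and 0 of 34 for Fgf signalling. Of all genes 1.85% had one, so a count of 0 in lists of this size is near that share. Separate sites were found at 30, 37, 13 and 28 of these genes in that order (66.7%, 71.2%, 81.25% and 82.4%, against 56.1% of all genes). The shared site inside Gli3 is outside these counts. Cartilage and bone had 1 of 24 (4.17%), Col1a1, through the Ppp1r9b site 38744 bp away. Among markers of other cell types that tooth germ tissue could hold, endothelial, blood and neural lists had 0 of 10 each. Skeletal muscle had 1 of 10 (10%), Pax7, with a site inside the gene 8597 bp from an end (scores 3.0 and 4.71). With 50% of the shorter peak required to overlap, the Col1a1 and Pax7 sites were lost. Peaks say nothing of whether these cells were present. Within 1 kb of an end, pSmad1/5 alone stood at 22 of 45 limb patterning genes (48.9%, against 18.4% of all genes). That share is above those of both dental lists. It was 30.8% for Wnt, 25% for hedgehog and 23.5% for Fgf signalling. Cartilage and bone (4.17%) and endothelial genes (10%) were below the share of all genes.

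**Figure D5:**
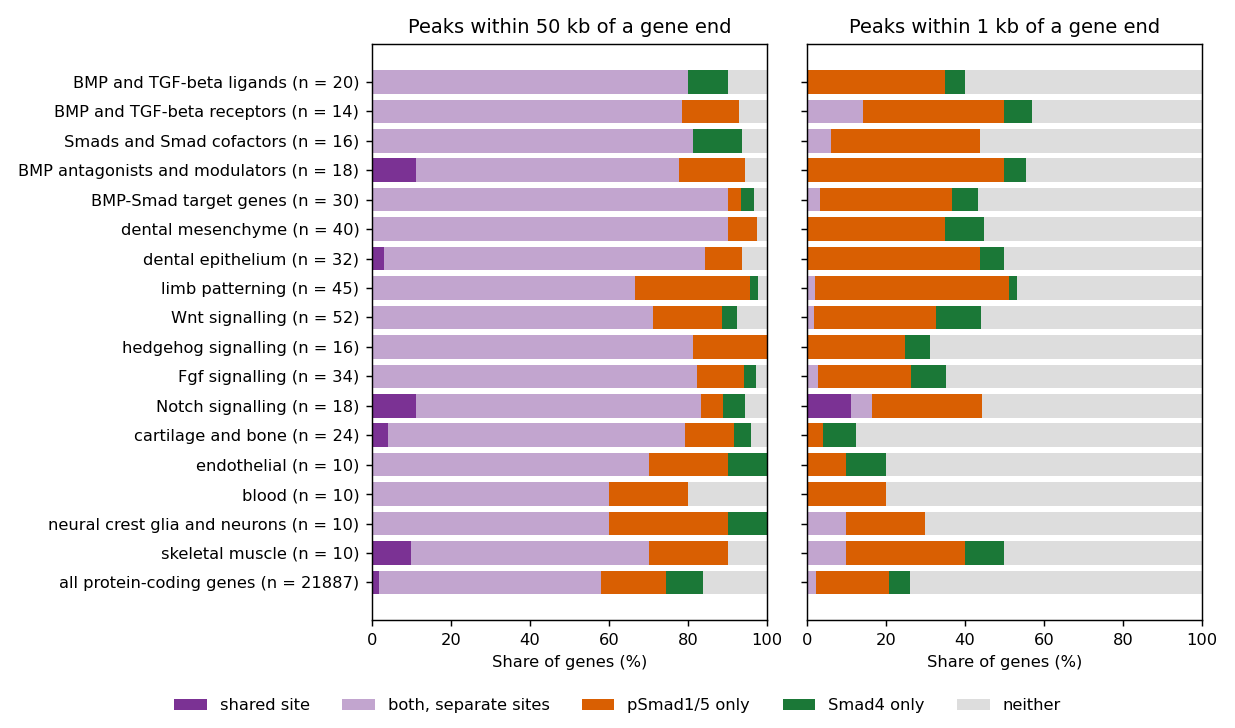
Share of genes in each list, in percent, with a shared site, both antibodies at separate sites, pSmad1/5 alone, Smad4 alone or neither, within 50 kb (left) and within 1 kb (right) of a gene end. Separate sites fill most of each bar on the left, 90% for dental mesenchyme and 56.1% for all genes, and on the right Notch signalling is the one list of 17 with any shared site (11.1%).

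The 469 genes with both antibodies within 1 kb of an end at separate sites carried the antibodies at varied distances. Their closest summits lay a median of 873 bp apart (quartiles 355 and 12293 bp), 249 genes had them within 1 kb, and 161 had them over 2 kb apart. Of 388 with a known strand, 209 carried both at the start, 112 had pSmad1/5 at the start and Smad4 at the far end, 28 had the reverse, and 39 had both at the far end. Limb peaks of both antibodies stood within 1 kb at 62 of the 469 (13.2%, 10.3 to 16.6%), at 12.4% of genes with molar pSmad1/5 alone (11.4 to 13.46%), at 7.56% with Smad4 alone (6.13 to 9.21%) and at 4.90% with neither (4.57 to 5.24%). For the 40 genes with a shared site it was 3 (7.5%, 1.57 to 20.4%).

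The 12 genes with the closest separate pairs had summits 27 to 81 bp apart. Pomc, the precursor gene of several peptide hormones, had them 27 bp apart, and Ttc28 57 bp apart, both before the gene start. Pomc also had a shared site farther off, 7566 bp from its start (chr12:3947330-3947379, scores 2.50 and 3.35). Capitals below mark the bases from one summit to the other in these promoters, from the same RefSeq table.
Pomc (chr12:3954695-3954994, plus strand): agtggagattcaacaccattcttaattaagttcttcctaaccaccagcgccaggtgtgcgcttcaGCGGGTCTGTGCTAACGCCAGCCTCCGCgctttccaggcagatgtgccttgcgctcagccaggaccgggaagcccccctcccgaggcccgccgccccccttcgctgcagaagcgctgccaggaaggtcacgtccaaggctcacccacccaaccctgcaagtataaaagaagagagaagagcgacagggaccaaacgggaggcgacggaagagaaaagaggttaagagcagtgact
Ttc28 (chr5:110879553-110879852, plus strand): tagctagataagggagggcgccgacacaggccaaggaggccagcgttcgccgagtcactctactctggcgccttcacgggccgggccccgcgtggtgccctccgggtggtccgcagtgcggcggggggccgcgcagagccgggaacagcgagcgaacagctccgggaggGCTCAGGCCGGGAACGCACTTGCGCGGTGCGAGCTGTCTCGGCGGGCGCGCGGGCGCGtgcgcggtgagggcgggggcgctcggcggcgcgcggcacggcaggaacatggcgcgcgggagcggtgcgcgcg
In Pomc the pSmad1/5 summit lay 158 bp and the Smad4 summit 185 bp before the start (scores 3.86 and 3.13). In Ttc28 they lay 24 bp and 81 bp before the annotated start of the window (scores 3.63 and 4.30), and the window holds GGCGCC on 2 occasions. The others of the 12 were the divergent genes Glyr1 and Ubn1, which share a pair 30 bp apart, Thop1 at its far end (39 bp), Prr16 (52 bp), Sephs1 (66 bp), the nucleolin gene Ncl (77 bp), Nmb and Wdr73, which share a pair 77 bp apart, Rtl5 (77 bp) and Cyb5r1 (81 bp). Of the 333 listed genes, 9 were of this kind (2.70%, against 2.14% of all genes). Besides Bmpr1a, Acvrl1, Ski and Hes1 they were Pax7 (258 bp), the glial factor Sox10 (588 bp), the receptors Fgfr1 (712 bp) and Lrp4 (1257 bp), and Tbx15 (1427 bp).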

How the data were processed

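Per the labels, each library came from wild-type CD1 tissue at E13.5, precipitated with an antibody to pSmad1/5 (Cell Signaling) or Smad4 (Abcam). The submitters' processing notes name bcl2fastq, Bowtie2, SAMtools, bedtools, deepTools and the mm10 build, without roles or versions. Per the labels, peaks were called with BCP in transcription factor mode, 1 list per library. The deposited lists give each peak's position, summit, enrichment score and p-value, all p-values under 0.001. They give no read counts, and the 2 input samples were not used here.

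Peaks sharing at least 1 bp were called shared. Summits were set against the ends of 21887 protein-coding genes of RefSeq GRCm38.p6, whose coordinates match mm10. Strand came from the promoter table, for 17492 of them. A score floor differs between chromosomes. Intervals are exact 95% binomial intervals from SciPy 1.17.1, with pandas 2.3.3 and Python 3.11.15, and the code was tested on simulated peaks. No p-value was computed, because each group is 1 library.

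Genes named are the nearest genes of the 12 shared peaks with the highest pSmad1/5 score, those within 1 kb of a shared summit, listed genes with a shared site within 50 kb, the 12 closest separate pairs at gene ends with the listed genes of that kind, 18 tooth and BMP genes, and the genes of the 5 highest unshared peaks per list. Members and the 17 lists (333 genes, all matched) were chosen with earlier results of these data known. Others named, such as Igfbp5, Alx4, Bmp15, Gli3 and Gtf2i, were picked after their values were seen. Some genes that this rule names are not reported here.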

Additional observations from a re-analysis of the deposited data

How the results depend on the processing

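With 50% of the shorter peak required to overlap, 127 pSmad1/5 peaks and 238 genes were shared, and the start shares at gene ends overlapped in their intervals (54.6 to 98.1% shared, 54.4 to 59.8% Smad4-only). With a score of at least 3 in both lists, 76 peaks and 184 genes were shared, 23.7% of shared and 19.8% of pSmad1/5-only sites lay near a gene end, 86.4% of such pSmad1/5-only sites were at a start, 3.79% of pSmad1/5-only sites met a limb peak, and the first summit bin stood at 1.55 times the level at 1 to 3 kb. With a score of at least 4, 10 peaks and 34 genes were shared and 3053 genes had separate sites; near a gene end were 30% of shared, 24.9% of pSmad1/5-only and 6.35% of Smad4-only sites, 87.7% of the pSmad1/5-only ones at a start. Limb peaks then met 10% of shared pSmad1/5, 4.63% of pSmad1/5-only, 10% of shared Smad4 and 0.945% of Smad4-only sites, and the summit bin stood at 2.65. With equal numbers of peaks per chromosome, 15.3% of pSmad1/5-only sites lay near a gene end. Taking near as 500 bp gave 11% of shared, 9.88% of pSmad1/5-only and 2.62% of Smad4-only sites, with 100%, 88.8% and 60.2% of them at a start; taking it as 5 kb gave 35.4%, 29.0% and 16.8%, with 63.3% of shared, 67.7% of pSmad1/5-only and 51.9% of Smad4-only sites at a start. A window of 10 kb left 137 genes with a shared site and 4907 with separate sites. Limb peaks within 500 bp of the summit met 17.2% of shared pSmad1/5, 10.98% of pSmad1/5-only, 17.1% of shared Smad4 and 4.42% of Smad4-only sites. Among promoter windows of 60 to 70% G and C, GGCGCC stood in 27.8% with pSmad1/5 alone and 24.9% of all. The share near a gene end was highest in shared and lowest in Smad4-only sites under each score and distance setting, but with 50% overlap required it was 13.4% in shared and 14.4% in pSmad1/5-only sites. Counts at single named genes left aside, 75 values under an alternative lay within the interval of the main value or within 1.5 times it. The other 41 moved outside. The cause was not tested. No paired analysis was possible because each group is 1 library; leaving one out was not possible either, and depth is unknown.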

Other observations

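Shared sites also lay at non-coding genes. Of the 209, 13 were within 1 kb of an end of a lncRNA gene, and 11 of these 13 were over 1 kb from any protein-coding end. Among them were a site 843 bp from Gm30518, nearest to the coding gene Foxa1, with a pSmad1/5 score of 2.19, and a site 149 bp from Gm17089 inside Etv6, an ETS-family repressor of transcription, with a pSmad1/5 score of 2.36. The sites of Bcl11a and Sipa1l3 were within 63 and 44 bp of an end of a further non-coding RNA, A830031A19Rik and 4932431P20Rik in that order. These genes were picked after their values were seen, and the counts carry no comparison with the unshared sites.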
